A study of Saccharomyces cerevisiae with 6 samples.

Results

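The transcripts described here encode 52 ribosome biogenesis factors of the budding yeast Saccharomyces cerevisiae, each read by 1 spot of a nylon GeneFilters membrane. They were chosen by name: every spot whose gene symbol is UTP, NOP, RRP or NSA followed by a number, which gave 18 UTP, 16 NOP, 16 RRP and 2 NSA genes of 6084 spots in all. The 3 strains were grown exponentially without iron in a Bio101 medium, and were CM3260 (wt), Y18 (aft1) and Y18aft2delta (aft1aft2). The proteins Aft1 and Aft2 are transcription factors and turn on genes of iron uptake and use when iron is scarce, and the study compared the strains pairwise, with experiments 1 and 2 for each pair. The aft1aft2 strain carries the change of the aft1 strain as well, and its AFT1 allele is not given in the sources used here. Whether experiments 1 and 2 used separate cultures is not said in the labels.

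A ribosome is built in the nucleolus from a long precursor RNA that is folded, chemically modified and cut while ribosomal proteins join it. The Utp proteins and many Nop and Rrp proteins form the small subunit processome, which makes the 40S subunit. Other Nop, Rrp and Nsa proteins act on the precursors of the 60S subunit, and small nucleolar ribonucleoproteins guide the modification of the RNA. The Rrp names also include subunits of the RNA exosome, a complex that trims and degrades RNA from the 3′ end and has substrates beyond ribosomal RNA. In yeast the genes of this group are known to be transcribed together with growth and to fall together under acute stress, as ribosomal protein genes do.

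Each value is a log ratio of 2 strains as the authors deposited it, taken as log2 because its base was not stated. It was turned to mutant minus reference and centred on the median of its column, so 0 is the typical spot of a membrane pair. The numerator of the ratio is also unstated. The direction used here is likely, from the order of strains in the titles and from known Aft1 targets of iron uptake, which are then low in the mutants. The opposite order would turn every sign and leave every size. A fitted difference is given as log2 with its standard error from limma (SE, n = 2 hybridisations per strain), and a transcript rose or fell where the limma p, adjusted by Benjamini-Hochberg over 6084 spots, was under 0.05. In RNA pooled from a culture, fewer cells making a transcript and less of it per cell cannot be told apart.

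Some facts of the whole series bear on the members. The 3 ratios of an experiment added up at each of the 6084 spots within 0.01, so the comparisons share 6 hybridisations and are not independent of each other. The AFT1 spot stood at 0.03 ± 0.25 in aft1 against wt, and the AFT2 spot at 0.78 ± 0.54 in aft1aft2 against wt, so neither showed a loss that would check the label of its strain. AFT1 was lower in aft1aft2, at -0.33 and -0.855 against wt (-0.59 ± 0.25, adjusted p = 0.243) and at -0.47 and -0.77 against aft1 (-0.62 ± 0.25, adjusted p = 0.213), and neither difference passed. Membrane signals were not used here, so how far a spot lay above background is unknown. The labels name no batch other than the experiment.

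In the aft1 strain the ribosome biogenesis factors lay slightly below the typical spot, and none passed the test. Their median was -0.20, against 0.01 for all spots, and with the values as deposited it was 0.06 against 0.27. Without centring every value of a comparison lies higher, so signs near 0 turn and positions relative to other spots do not. In the centred values the members' quartiles were -0.45 and -0.01. Of the 52 members 40 were below 0 (76.9%, against 49.5% of all spots). In both experiments 24 were below 0, or 46.2%, where 32.5% of all spots were. Above 0 in both experiments stood 5 members, or 9.62%, against 32.3% of all spots. Limma called 0 of the 52, against 1.46% of all spots (0.625% lower and 0.838% higher). At an unadjusted p under 0.05 it counted 7 members lower and 0 higher, which is 13.5% of members where 7.36% of all spots were lower, and 0% where 8.07% were higher.

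Against wt the aft1aft2 strain showed no common shift of the members, with a median of 0.04 (all spots 0.02) that ran from -0.155, without the aft1aft2 hybridisation of experiment 1, to 0.07 with 1 hybridisation left out. Here 25 members were below 0 (48.1%, against 48.2% of all spots), 18 of them in both experiments (34.6%, against 30.5%). Above 0 in both were 14 (26.9%, against 30.7%). NOP1 alone passed the test, so 1.92% of the members were called, all lower, where 4.44% of all spots were called and 3.71% were called lower. No member was called higher, where 0.723% of all spots were. At an unadjusted p under 0.05 there were 4 lower members (7.69%, against 12.2% of all spots) and 2 higher (3.85%, against 9.24%), together 11.5% against 21.4%.

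Between the mutants the members lay slightly higher in aft1aft2 than in aft1, with a median of 0.10 against 0.03 for all spots. By experiment it was 0.22 in experiment 1 and 0.03 in experiment 2, so the members lay near the typical spot in experiment 2. The members' median ran from 0.025, without the aft1aft2 hybridisation of experiment 1, to 0.233, without the aft1 hybridisation of experiment 2. In both experiments 20 members were above 0 (38.5%, against 33.4% of all spots) and 10 below 0 (19.2%, against 33.2%). Limma called 0 members, where 2.83% of all spots were called, 2.6% lower and 0.23% higher. At an unadjusted p under 0.05 it counted 10 members higher and 1 lower, so 19.2% of members were higher where 9.5% of all spots were, and 1.92% were lower where 13.1% were.

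**Figure D1:**
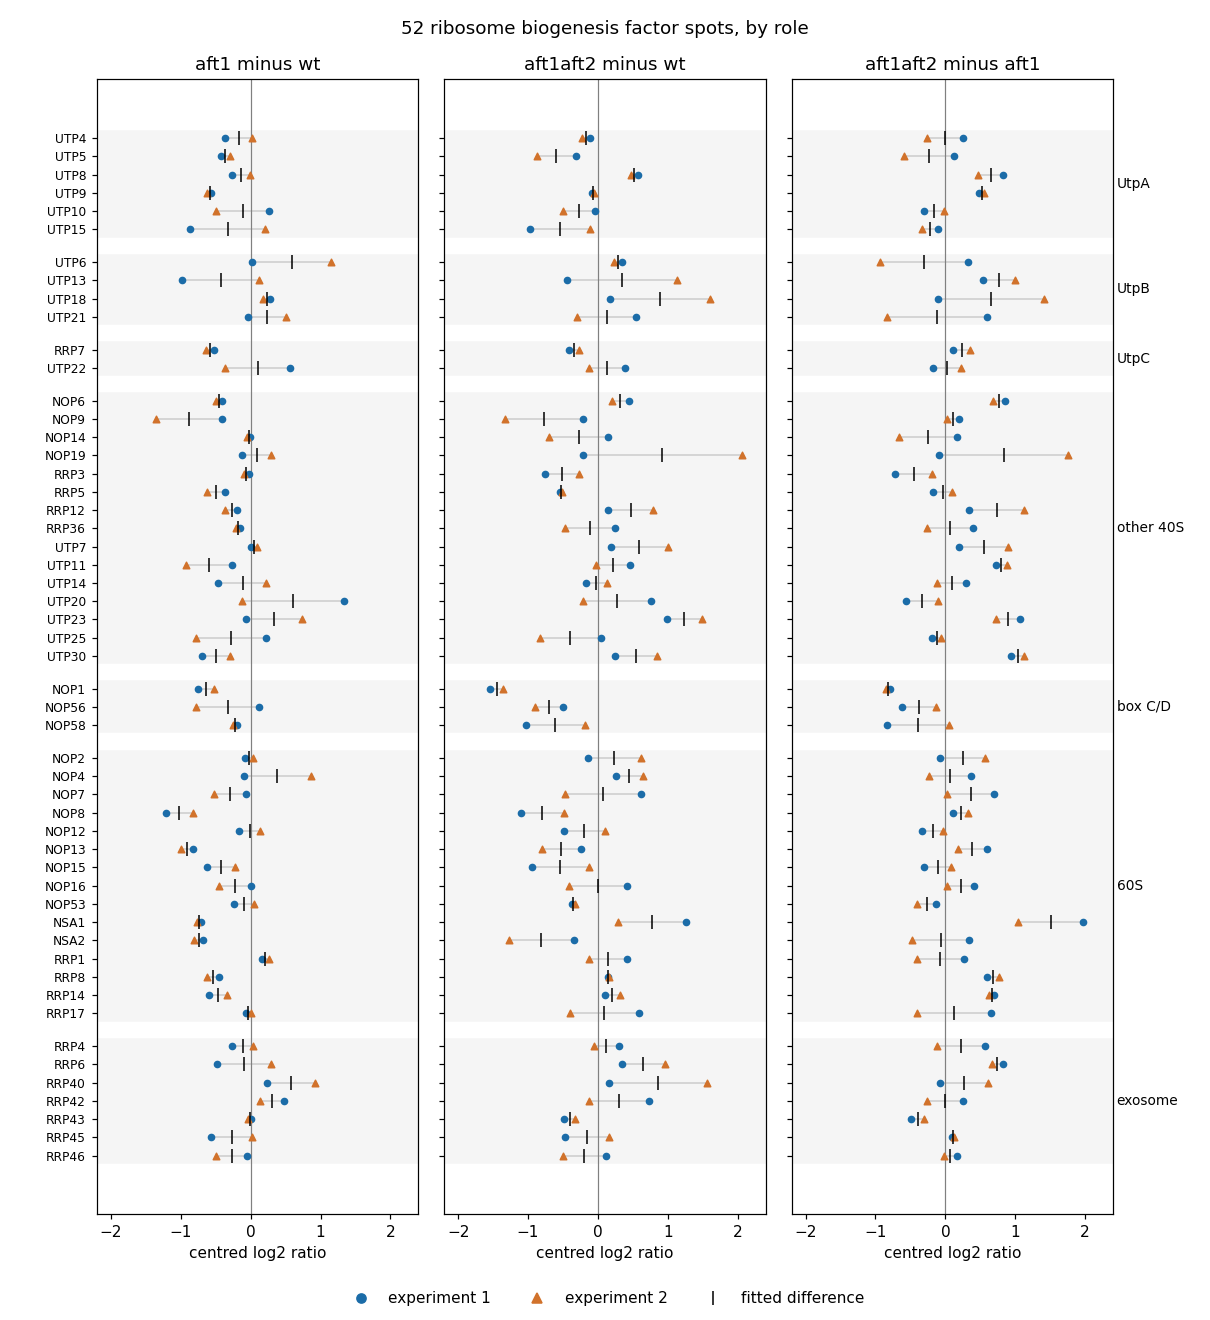
Centred log2 ratios (horizontal axis) of the 52 member spots, in rows grouped by role, for each of the 3 strain comparisons. Circles are experiment 1, triangles experiment 2 and short bars the fitted difference. Most members lie within 1 log2 unit of 0, and NOP1 in aft1aft2 minus wt is the member that passed the test.

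The depth of this reading is limited by 2 hybridisations per strain. Standard errors of the members ran from 0.23 to 0.53 with a median of 0.28 (all spots 0.27). The 95% interval lay wholly inside a 2-fold change in either direction for 23 members in aft1 against wt (44.2%, against 48.1% of all spots). In aft1aft2 against wt it did so for 23 (44.2%, against 42.6%), and between the mutants for 28 (53.8%, against 42.2%). For the other members the interval reached a 2-fold change, so such a change was neither shown nor bounded. Across the 52 members the ratios of the 2 experiments correlated with r = 0.288 (rho = 0.305) in the aft1 comparison with wt, r = 0.318 (rho = 0.331) in that of aft1aft2 and r = 0.345 (rho = 0.313) between the mutants. These are descriptions across genes that share membranes. The corresponding r over all spots was 0.553, 0.449 and 0.554, and rho was 0.459, 0.349 and 0.486. In each of the 6 hybridisations the strain levels spread less among members than among all spots, for example with an SD of 0.274 against 0.401 in the aft1 membrane of experiment 2.

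**Figure D2:**
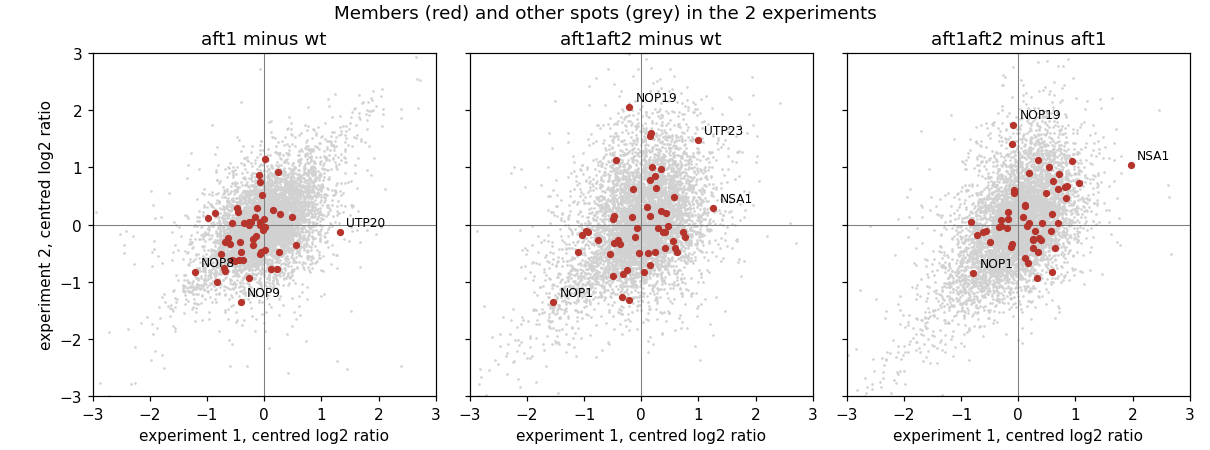
Centred log2 ratio in experiment 1 (horizontal) against experiment 2 (vertical) for the 52 members in red and all other spots in grey, by comparison. The axes end at 3 in either direction, and spots beyond that are not drawn. Members sit inside the grey cloud, with NOP19 high in experiment 2 of aft1aft2 and near 0 in experiment 1.

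The 3 members of the box C/D particles had the lowest median of the 7 role groups in aft1aft2 against wt, at -0.70. These particles carry guide RNAs, and Nop1, or fibrillarin, is their methyltransferase, while Nop56 and Nop58 form the scaffold. NOP1 (YDL014W) stood at -1.54 in experiment 1 and -1.355 in experiment 2 of aft1aft2 against wt. Both values are more than 2-fold below the typical spot, and no other member reached that in both experiments of this comparison, where 4.31% of all spots did. The fitted difference was -1.45 ± 0.23 (SE, n = 2), or 2.73-fold lower, with a 95% interval of -2.01 to -0.89 and a limma adjusted p of 0.0299. That call rests on the full set of hybridisations: with 1 of the 6 left out in turn it passed in 1 case, the fitted value ran from -1.55 to -1.35 and the adjusted p from 0.0394 to 0.0987. In aft1 against wt NOP1 was -0.75 and -0.52 in experiments 1 and 2 (-0.63 ± 0.23, adjusted p = 0.269). Between the mutants it was -0.79 and -0.85 (-0.82 ± 0.23, adjusted p = 0.122), so both its steps had the same sign in both experiments and neither passed.

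NOP56 (YLR197W) and NOP58 (YOR310C) lay on the same side of 0 as NOP1 without passing. In aft1aft2 against wt NOP56 was -0.50 and -0.895 in experiments 1 and 2, with a fitted -0.70 ± 0.29 (adjusted p = 0.233). NOP58 was -1.03 and -0.185 in the same comparison, with a fitted -0.61 ± 0.30 (adjusted p = 0.302). The experiments differ widely for NOP58, and its 95% interval of -1.34 to 0.12 includes 0. In aft1 against wt NOP56 changed sign between experiments, at 0.12 and -0.78, while NOP58 was -0.20 and -0.25.

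The remaining box C/D core protein is Snu13, which binds the kink turn of the guide RNA and is also part of the spliceosome. SNU13, outside the name rule, stood at -1.57 and -1.81 in aft1 against wt, a fall of -1.69 ± 0.24 (adjusted p = 0.0321). In aft1aft2 against wt it was -1.16 and -1.505, a fall of -1.33 ± 0.24 (adjusted p = 0.0375). The 4 box C/D core genes were thus below the typical spot in both experiments of aft1aft2 against wt, where 30.5% of all spots were. Of the 4, NOP1 and SNU13 fell, where 3.71% of all spots were called lower. The steps of NOP1 and SNU13 between the mutants differed in sign: SNU13 was 0.36 ± 0.24 (adjusted p = 0.419) where NOP1 was negative. H/ACA particles, which turn uridine into pseudouridine, hold Cbf5, Gar1, Nhp2 and Nop10, and Nop10 was not analysed here. GAR1 stood at -0.75 ± 0.23 and NHP2 at -0.50 ± 0.23 in aft1aft2 against wt, with adjusted p-values of 0.141 and 0.276. The pseudouridine synthase gene CBF5 was nearer 0 at -0.15 ± 0.26 in the same comparison (adjusted p = 0.763).

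**Figure D3:**
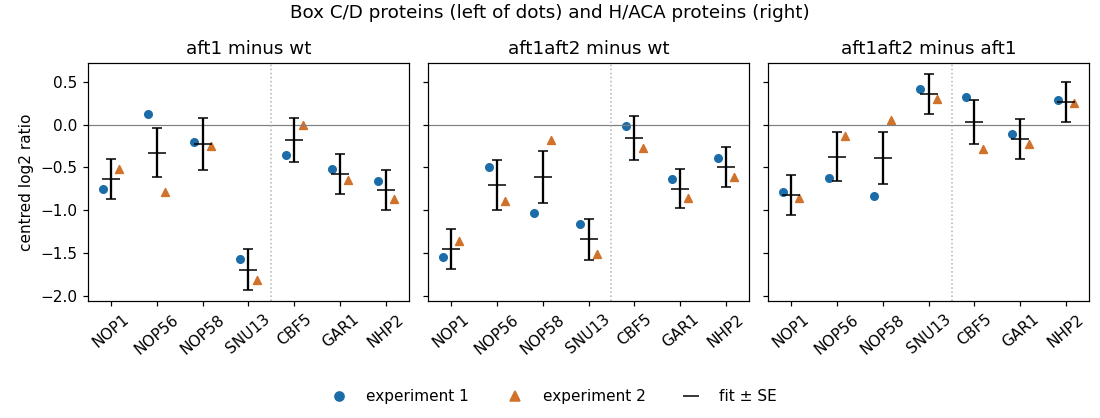
Centred log2 ratios of the box C/D protein genes NOP1, NOP56, NOP58 and SNU13 (left of the dotted line) and the H/ACA protein genes CBF5, GAR1 and NHP2 (right), for each comparison. Circles are experiment 1, triangles experiment 2, and horizontal bars the fitted difference with its standard error. SNU13 lies below -1 against wt in both mutants, and NOP1 in aft1aft2.

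UtpA, the complex that binds the precursor RNA first, showed small differences. Its 6 members by name, UTP4, UTP5, UTP8, UTP9, UTP10 and UTP15, had fitted values from -0.59 to -0.11 in aft1 against wt, with a median of -0.245. All 6 fitted values were negative, where 49.5% of all spots were below 0. In both experiments 3 of the 6 were below 0 (50%, against 32.5% of all spots), while UTP4, UTP10 and UTP15 changed sign between experiments. UTP9 (YHR196W) was the lowest of the 6 and repeated closely, at -0.56 and -0.62 (-0.59 ± 0.23, adjusted p = 0.294). In aft1aft2 against wt UTP9 was near 0, at -0.08 and -0.055. UTP8, whose product is also known from tRNA export, was -0.26 and -0.01 in aft1 and 0.57 and 0.475 in aft1aft2 against wt. That put UTP8 0.65 ± 0.24 higher in aft1aft2 than in aft1 (adjusted p = 0.184). UTP5 and UTP15 went the other way, at -0.60 ± 0.27 and -0.545 ± 0.32 in aft1aft2 against wt, so the 6 genes did not move as a block there. The remaining UtpA gene NAN1 (Utp17 is another name of its product), outside the name rule, lay at -0.44 ± 0.25 for aft1 and 0.47 ± 0.25 for aft1aft2, each against wt. Between the mutants NAN1 was 0.75 and 1.07 (0.91 ± 0.25, adjusted p = 0.113).

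UtpB docks onto the precursor after UtpA, and 3 of its 4 genes with a UTP symbol, UTP6, UTP13 and UTP18, had gaps of over 1 log2 unit between experiments against wt in at least 1 mutant. UTP6 (YDR449C) was 0.02 and 1.15 in aft1 against wt, fitted at 0.59 ± 0.36 (adjusted p = 0.483). UTP18 (YJL069C) was 0.17 in experiment 1 and 1.605 in experiment 2 of aft1aft2 against wt, fitted at 0.885 ± 0.41 (adjusted p = 0.275). UTP13 was -0.98 and 0.12 in aft1 and -0.44 and 1.135 in aft1aft2 against wt. UTP21 lay at 0.24 ± 0.36 and 0.12 ± 0.36 in the same comparisons. The median of the 4 genes was 0.24 for aft1 and 0.32 for aft1aft2, both against wt, with standard errors from 0.36 to 0.41 that are all above the members' median. With 1 hybridisation left out the aft1 median ran from -0.13, without the aft1 hybridisation of experiment 2, to 0.40, and the aft1aft2 median from 0.12 to 0.78, without wt of experiment 2 and of experiment 1. DIP2 and PWP2 are UtpB genes outside the name rule. DIP2 was -0.12 ± 0.31 and -0.08 ± 0.31 against wt in aft1 and aft1aft2. PWP2, read by 3 spots, ran from -0.30 to 0.13 in aft1 and from -0.01 to 0.255 in aft1aft2. Of UtpC, UTP22 stood at 0.10 ± 0.29 in aft1 against wt and 0.125 ± 0.29 in aft1aft2 against wt. RRP7, its partner, was -0.52 and -0.64 in aft1 against wt (-0.58 ± 0.23, adjusted p = 0.312) and -0.345 ± 0.23 in aft1aft2.

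Among the other 15 factors of the 40S subunit, UTP23 came nearest to passing. Utp23 is a processome protein linked to the release of the snR30 guide RNA. UTP23 (YOR004W) was 0.99 and 1.485 in aft1aft2 against wt, the highest member there at 1.24 ± 0.28, with an adjusted p of 0.0691. Against aft1 it was 1.06 and 0.73 (0.90 ± 0.28, adjusted p = 0.144), and in aft1 against wt it changed sign, at -0.07 and 0.74. UTP30, whose product is related to ribosomal protein L1, was 0.94 and 1.12 between the mutants (1.03 ± 0.26, adjusted p = 0.0957). It stood below wt in aft1, at -0.69 and -0.30, and above wt in aft1aft2, at 0.24 and 0.845. UTP11 was 0.72 and 0.88 between the mutants (0.80 ± 0.27, adjusted p = 0.159), and NOP6 was 0.85 and 0.68 (0.77 ± 0.23, adjusted p = 0.138). The aft1 hybridisations enter both the aft1-against-wt values and these, with opposite sign.

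NOP9 was the lowest of these 15 against wt in either mutant. Nop9 is an RNA-binding protein of the 40S precursor. NOP9 (YJL010C) was -0.41 and -1.36 in aft1 against wt, fitted at -0.88 ± 0.33 (adjusted p = 0.278). It was -0.22 and -1.325 in aft1aft2 against wt, fitted at -0.77 ± 0.33 (adjusted p = 0.246). In each case experiment 2 carried most of the difference, and between the mutants NOP9 was 0.11 ± 0.33. RRP3, a DEAD-box RNA helicase gene, was -0.76 and -0.275 in aft1aft2 against wt and -0.72 and -0.19 against aft1, fitted there at -0.45 ± 0.26 (adjusted p = 0.347). RRP5, needed for both subunits, was -0.49 ± 0.23 for aft1 and -0.53 ± 0.23 for aft1aft2, each against wt, with adjusted p-values of 0.375 and 0.257. Its 4 values against wt lay between -0.62 and -0.37.

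NOP19 and UTP20 had the widest gaps between experiments of the 52 members, in aft1aft2 and in aft1 against wt. NOP19 (YGR251W) was -0.21 in experiment 1 and 2.055 in experiment 2 of aft1aft2 against wt, fitted at 0.92 ± 0.53 (adjusted p = 0.360). It had the largest standard error of the members. UTP20 (YBL004W), a large scaffold protein gene, was 1.33 and -0.13 in aft1 against wt, the highest member there at 0.60 ± 0.37 (adjusted p = 0.491). UTP18 also had its high value in experiment 2 of aft1aft2 against wt, at 1.605 where experiment 1 had 0.17. Without the aft1aft2 membrane of experiment 1 that strain rests on experiment 2 alone, so calls made there are not read as results. On the aft1aft2 membrane of experiment 2 the levels of all spots had the widest spread, with an SD of 0.512 against 0.347 to 0.421 on the other membranes.

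Of the 15 factors of the 60S subunit, NOP8 and NOP13 were the lowest members in aft1 against wt. NOP8 (YOL144W), which acts on early 60S precursors, was -1.21 and -0.83 in aft1 against wt, the lowest member there at -1.02 ± 0.26. Its adjusted p was 0.132, and its 95% interval ran from -1.64 to -0.39. NOP13 (YNL175C), found in nucleolar 60S precursors, was -0.83 and -1.0 (-0.91 ± 0.25, adjusted p = 0.157). In aft1aft2 against wt both were still below 0, NOP8 at -1.10 and -0.485 and NOP13 at -0.25 and -0.805. NSA2 (YER126C) was -0.68 and -0.81 in aft1 and -0.34 and -1.275 in aft1aft2 against wt, fitted at -0.74 ± 0.30 and -0.81 ± 0.30 (adjusted p = 0.322 and 0.198).

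NSA1 (YGL111W) showed the widest difference between the mutants of any member. Nsa1 belongs to a 60S precursor particle from which the Rix7 ATPase removes it. NSA1 was -0.71 and -0.77 in aft1 against wt and 1.26 and 0.285 in aft1aft2 against wt. Between the mutants it was 1.97 and 1.04, a fitted 1.51 ± 0.32 or 2.84-fold higher in aft1aft2, with a 95% interval of 0.74 to 2.27. The adjusted p was 0.0695, so NSA1 did not pass, although its unadjusted p was 0.0028. Whether NSA1 passed between the mutants changed with the hybridisation left out. Leaving out either wt hybridisation gives the same fit between the mutants, so those are 1 case. In each such fit 1 strain rests on 1 membrane. Without a wt hybridisation that strain is wt and both mutants keep both membranes, but fewer hybridisations are left to measure the spread. A call in any of these fits is not read as a result. RRP8, a methyltransferase of the 25S RNA, and RRP14 were also higher in aft1aft2 than in aft1 in both experiments, at 0.68 ± 0.23 and 0.67 ± 0.23 (adjusted p = 0.163 and 0.171).

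Most of the other 60S factors lay nearer 0. NOP15, which acts on early 60S precursors, was lower, at -0.63 and -0.23 in aft1 (-0.43 ± 0.28) and -0.94 and -0.135 in aft1aft2 (-0.54 ± 0.28) against wt, with adjusted p-values of 0.516 and 0.319. NOP2, a 25S methyltransferase gene, was -0.02 ± 0.28 for aft1 and 0.23 ± 0.28 for aft1aft2, each against wt. NOP7, of the PeBoW complex with Erb1 and Ytm1, was -0.29 ± 0.32 and 0.07 ± 0.32. RRP1 was 0.21 ± 0.27 and 0.14 ± 0.27, NOP12 -0.01 ± 0.26 and -0.20 ± 0.26, and the exonuclease gene RRP17 -0.03 ± 0.33 and 0.09 ± 0.33. NOP4 was -0.10 and 0.86 in aft1 against wt, fitted at 0.38 ± 0.30. NOP53, whose product brings the exosome to the 60S precursor, was -0.09 ± 0.24 and -0.355 ± 0.24. The 15 genes had a median of -0.29 in aft1 against wt, with 13 below 0 (86.7%, against 49.5% of all spots). In both experiments 8 were below 0 there (53.3%, against 32.5%). In aft1aft2 against wt the median was 0.07, with 6 below 0 (40%, against 48.2%).

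The 7 exosome genes had a median of -0.09 for aft1 and 0.12 for aft1aft2, both against wt, and none passed. The 95% interval lay inside a 2-fold change for 6 of 7 in aft1 (85.7%, against 48.1% of all spots). In aft1aft2 it did so for 5 of 7 (71.4%, against 42.6%), and RRP40 and RRP6 were the exceptions there. RRP40 (YOL142W), which encodes a cap subunit, was also the exception in aft1, at 0.24 and 0.92 (0.58 ± 0.36, adjusted p = 0.487). In aft1aft2 against wt RRP40 was 0.16 and 1.555, fitted at 0.85 ± 0.36 (adjusted p = 0.241). RRP6, the nuclear exonuclease, was -0.48 and 0.29 in aft1 and 0.34 and 0.965 in aft1aft2 against wt, and 0.74 ± 0.28 higher in aft1aft2 than in aft1 (adjusted p = 0.192). The ring subunit genes RRP42, RRP43, RRP45 and RRP46 lay between -0.27 and 0.31 in aft1 and between -0.405 and 0.30 in aft1aft2 against wt. RRP43 was the lowest of the 7 between the mutants, at -0.49 and -0.30 (-0.39 ± 0.23, adjusted p = 0.364). The cap subunit gene RRP4 was -0.11 ± 0.26 and 0.12 ± 0.26 against wt. In the R64 gene table RRP40 and NOP8 are separated by the 1 gene RIB4, and they stood on opposite sides of 0 in both mutants.

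The order of the 3 strains was compared gene by gene, as a description. The aft1 strain was the lowest of the 3 in both experiments for 14 members (26.9%, against 16.1% of all spots) and the highest for 0 (17.2% of all spots). The 14 were NOP6, NOP7, NOP8, NOP9, NOP13, NSA1, RRP7, RRP8, RRP12, RRP14, UTP8, UTP9, UTP11 and UTP30. The aft1aft2 strain was lowest for 7 members (13.5%, against 20.3% of all spots) and highest for 10 (19.2%, against 19.1%). In both experiments 7 members were below wt in aft1 and above wt in aft1aft2 (13.5%, against 5.74% of all spots): NOP6, NSA1, RRP8, RRP12, RRP14, UTP8 and UTP30. The reverse pattern held for 0 members and 7.17% of all spots. Below wt in both mutants and both experiments were 12 members (23.1%, against 15.2%), among them NOP1, NOP8, NOP13, NSA2 and RRP5. Above wt throughout were 3 (5.77%, against 14.8%): RRP40, UTP6 and UTP18. The hybridisations of wt are common to both mutants' values, so these counts hold fewer independent readings than they have entries.

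The ribosomal protein genes listed here lay lower against wt than the factors that assemble them. The list was a chosen 61 genes that leaves out most second copies of paralogue pairs, and 59 were measured. Over the 59 cytosolic ribosomal protein spots the median was -1.01 for aft1 and -0.95 for aft1aft2, both against wt. The 52 members had -0.20 and 0.04. With the values as deposited the ribosomal protein medians were still below 0, at -0.74 and -0.44. Below 0 in both experiments were 57 of the 59 in aft1 (96.6%, against 32.5% of all spots) and 56 in aft1aft2 (94.9%, against 30.5%). Limma called 2 lower in aft1 (3.39% of the list, against 0.625% of all spots) and 17 in aft1aft2 (28.8%, against 3.71%), and none higher. Between the mutants the ribosomal protein median was 0.06. The lists were compared by these counts and medians alone, with no test of the difference between them.

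Other assembly genes outside the name rule lay near the members. The 38 spots of 36 other 40S genes, 3 of them for PWP2, had a median of -0.14 in aft1 and 0.14 in aft1aft2 against wt, with 0 called in either. The list of 52 other 60S genes includes NUC1, which is not an assembly factor, and MTR4, also counted below among the exosome cofactors. Its medians were -0.37 and -0.11, with 1 spot lower in each (1.92%, against 0.625% and 3.71% of all spots). That spot was DRS1, an RNA helicase gene of the 60S pathway, at -3.37 and -2.73 in aft1 and -4.52 and -3.715 in aft1aft2 against wt. The other large fall of a nucleolar protein gene was SRP40, at -4.67 ± 0.24 and -5.70 ± 0.24 (adjusted p = 0.00251 and 7.03e-04). SRP40 and SNU13 were the 2 spots called among 19 of snoRNA particle partners and nucleolar proteins (10.5%, against 1.46% and 4.44% of all spots). The medians of that list were -0.13 and -0.12. DRS1 and SRP40 were known from earlier results of these data when the lists were drawn up, so the called shares are descriptions only. RNA polymerase I and its factors had medians of -0.04 and 0.21 over 18 spots with 0 called. The exosome's other subunits and cofactors stood at -0.15 and -0.23 over 15 spots with 0 called. The 16 regulators of ribosome biogenesis genes, such as SFP1 and IFH1, had medians of -0.03 and 0.10 with 0 called.

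Genes induced by environmental stress were high beside these low values in aft1. Their 25 spots had a median of 1.02 in the aft1 strain and 0.345 in the aft1aft2 strain against wt, and of -0.74 between the mutants, where the members had -0.20, 0.04 and 0.10. Limma called 4 of the stress genes higher against wt in each mutant (16%, against 0.838% of all spots in aft1 and 0.723% in aft1aft2). TSL1 alone was called in both mutants, so the calls were otherwise of different genes. In aft1aft2 against wt 13 stress genes were above 0 in both experiments (52%, against 30.7% of all spots) and 9 below 0 (36%, against 30.5%). Between the mutants limma called 5 stress genes lower in aft1aft2 (20%, against 2.6% of all spots). Their part in the members' values was not tested.

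**Figure D4:**
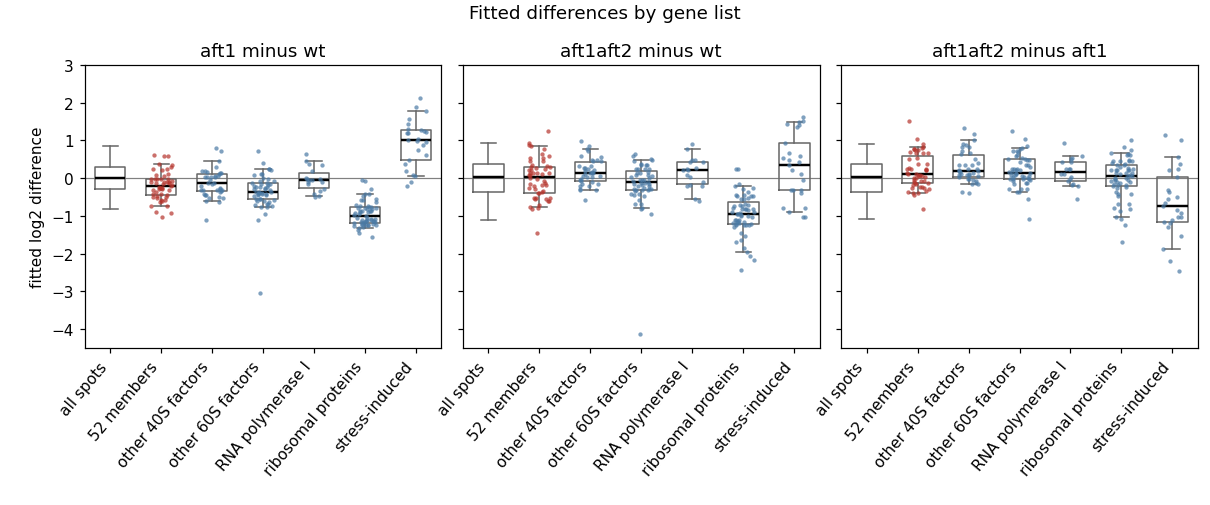
Fitted log2 differences (vertical axis) for all spots, the 52 members in red and 5 other gene lists, in the 3 comparisons. Boxes span the quartiles with the median as a line, whiskers the 5 to 95 percentile range, and each point is 1 spot (points are not drawn for all spots). The members centre near 0 in each comparison, while ribosomal protein genes centre near -1 against wt in both mutants. The low point among other 60S factors is DRS1.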

How the data were processed

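RNA of 3 yeast strains was compared pairwise in experiments 1 and 2, which gives 6 samples. Per the labels, 5 µg of total RNA from a hot phenol extraction were reverse-transcribed and hybridised to GeneFilters membranes. A phosphor screen exposed for 3 days was read on a Storm 860, and spots were quantified with PATHWAYS 3. The authors deposited a log ratio for each spot, read here as log2. Its base, direction and normalisation, and any genome build, are not stated in the labels or the file. Signal depth is unknown, and the 2 hybridisations per strain limit the precision.

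Symbols came from the platform table, which names 5523 of the 6084 spots. All 52 members matched the R64 gene table. Columns were turned to mutant minus reference and centred on their medians. Strain levels were obtained by least squares within each experiment, because the 3 ratios close. A two-sided test came from limma 3.58.1 (R 4.3.3), with terms for strain and experiment (2 residual degrees of freedom, prior of 4.25 with variance 0.0754). Benjamini-Hochberg adjustment covered the 6084 spots, with a threshold of 0.05. The p-values measure the spread between these hybridisations, which may be technical. The fit was tested on simulated data.

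The experiment number is the replicate block. Each deposited ratio already lies within an experiment, so the pairing comes from how the ratios were built. Members and gene lists were chosen with earlier results of these data known, and lists are described by counts and medians. Named with values were members past the test, the 6 lowest and 4 highest members of each comparison, their complex partners and, from other lists, up to 3 called spots with DRS1 and SRP40; further members were named after their values were seen. No sequences are shown, since none was given for these genes. Alternatives were the values as deposited, scaled or quantile normalised columns, another prior, each comparison alone, no block and each hybridisation left out.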

Additional observations from a re-analysis of the deposited data

How the results depend on the processing

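In aft1 against wt, 0 members passed in the reported fit and under each alternative that kept the experiment as a block, including each comparison fitted alone and the range of 0 to 0 with 1 hybridisation left out. With no replicate block 4 passed, NOP1, NOP8, NOP13 and UTP9, all lower. That fit counts 1 residual degree of freedom more than levels centred within an experiment hold, so it passes spots too easily. In aft1aft2 against wt the 1 call, NOP1, became 0 with the values as deposited (-0.935, adjusted p = 0.0777) and with the comparison fitted alone (adjusted p = 0.0532), and 3 with no replicate block. It ranged from 0 to 4 with 1 hybridisation left out, the 4 being NOP1, NSA2, NOP19 and UTP18 without the aft1aft2 hybridisation of experiment 1. Between the mutants 0 became 10 with no replicate block, 9 higher and 1 lower, and 0 to 2 with 1 hybridisation left out. With no replicate block the calls over all spots rose too, so the rise was not confined to the members. In aft1 against wt all spots went from 38 lower and 51 higher to 283 lower and 307 higher. In aft1aft2 against wt they went from 226 lower and 44 higher to 618 lower and 322 higher. Between the mutants they went from 158 lower and 14 higher to 635 lower and 315 higher. Beyond the extra degree of freedom of the fit with no replicate block, the cause of these changes in calls was not tested.

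Not centring adds to every spot of a comparison alike. The member median as deposited was 0.0642 in the aft1 strain and 0.55 in the aft1aft2 strain against wt, and 0.35 between the mutants, where all spots had 0.27, 0.54 and 0.28. The low median of aft1 was thus a position relative to other spots. It ran from -0.30 to -0.14 with 1 hybridisation left out. By experiment it was -0.20 and -0.17, while the medians of aft1aft2 against wt were 0.11 and -0.13, and 0.22 and 0.03 between the mutants. Scaled or quantile normalised columns kept the sign of the 3 medians and the calls of members. Over all spots the calls in aft1 against wt were 89, with 4 to 233 when 1 hybridisation was left out.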
